A study of Mus musculus with 6 samples.

Results

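The annexin genes are described here in sorted luminal cells of the mouse prostate, the secretory epithelial cells that line its glands. The members were the 10 genes Anxa1 to Anxa9 and Anxa11, chosen by symbol among 24346 gene symbols, and they are listed with 14 transcripts. RNA sequencing compared CSF1 libraries, from C57BL/6 mice of 4 months that carry mouse Csf1 under the rat probasin promoter, with WT libraries, from wild-type littermates of the same age and strain. The probasin promoter drives the transgene in prostate epithelium, and how many transgenic lines or animals were used is not given in the sources used here. Each group had 3 libraries, whose titles carry the numbers 3, 5 and 8 in both groups. The sort markers are not given either. Nothing says that each library came from its own animal, so every p-value here rests on the spread among these libraries, which may be technical.

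Annexins are proteins that bind membranes carrying negatively charged phospholipids when calcium rises. They share a conserved core of calcium-binding repeats and differ in a variable amino-terminal tail, through which several of them bind S100 proteins. They are known for membrane repair, vesicle traffic, the surface activation of plasminogen and the damping of inflammation, and ANXA1 and ANXA2 are known to be low in many human prostate tumours.

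Gene positions are on GRCm38 (mm10), as the deposited tables give them, and each member is annotated as protein coding. Levels are in FPKM, which divides fragments by transcript length and library size, and are summed over the transcripts of a gene, so that different genes can be compared. Csf1, the gene of the transgene, averaged 1362 ± 299.97 FPKM in CSF1 and 2.59 ± 1.25 FPKM in WT (SD, n = 3 each). Of 10951 tested genes, those averaging 1 FPKM or more, 2731 were higher (24.9%) and 818 lower (7.47%) in CSF1 at a limma adjusted p under 0.05. Across all tested genes the log2 change had a median of 0.17. It moved to -0.16 after quantile normalization, to -0.01 after median-ratio scaling and to 0.00 after rescaling outside the 5 most abundant genes. The share of called genes that were higher was 76.95% as deposited and 41.8%, 55.7% and 59.7% under these scalings. Of 10 luminal markers, all above 5 FPKM in every WT library, 3 rose and 1 fell (4 and 1 with the title number as a block), and their summed level was 5255 to 7030 FPKM in CSF1 and 4931 to 6353 FPKM in WT.

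Annexin transcripts were more abundant in CSF1 luminal libraries, and 4 genes, Anxa1, Anxa2, Anxa3 and Anxa5, carried most of the difference. The 10 genes together reached 3545, 2975 and 4556 FPKM in CSF1 replicates 3, 5 and 8, against 885, 920 and 1106 FPKM in WT replicates 3, 5 and 8. This was a mean of 3692 ± 801 FPKM in CSF1 and 970.3 ± 119 FPKM in WT (SD, n = 3 each), 3.80-fold higher in CSF1, and the groups did not overlap. Of the 9 annexins tested, 6 rose, 0 fell and 3 did not pass limma's test, where 24.9% of all tested genes rose and 7.47% fell. Anxa8 passed the filter on low values only through the CSF1 libraries, and Anxa9, listed at 0 throughout, was not tested. The other 8 were above 5 FPKM in every WT library, and 5 of them rose. The median log2 change of these 8 was 1.23, beside 0.17 for all tested genes, and it was 1.06, 1.02 and 1.04 after quantile normalization, median-ratio scaling and rescaling outside the 5 most abundant genes. Under these scalings 5, 4 and 4 annexins rose and 1, Anxa6, fell. Groups did not overlap for 7 annexins that were higher in CSF1 and for 1 that was lower. Groups did not overlap for 47.7% of all tested genes, made up of 34.7% higher and 13.1% lower in CSF1.

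**Figure D1:**
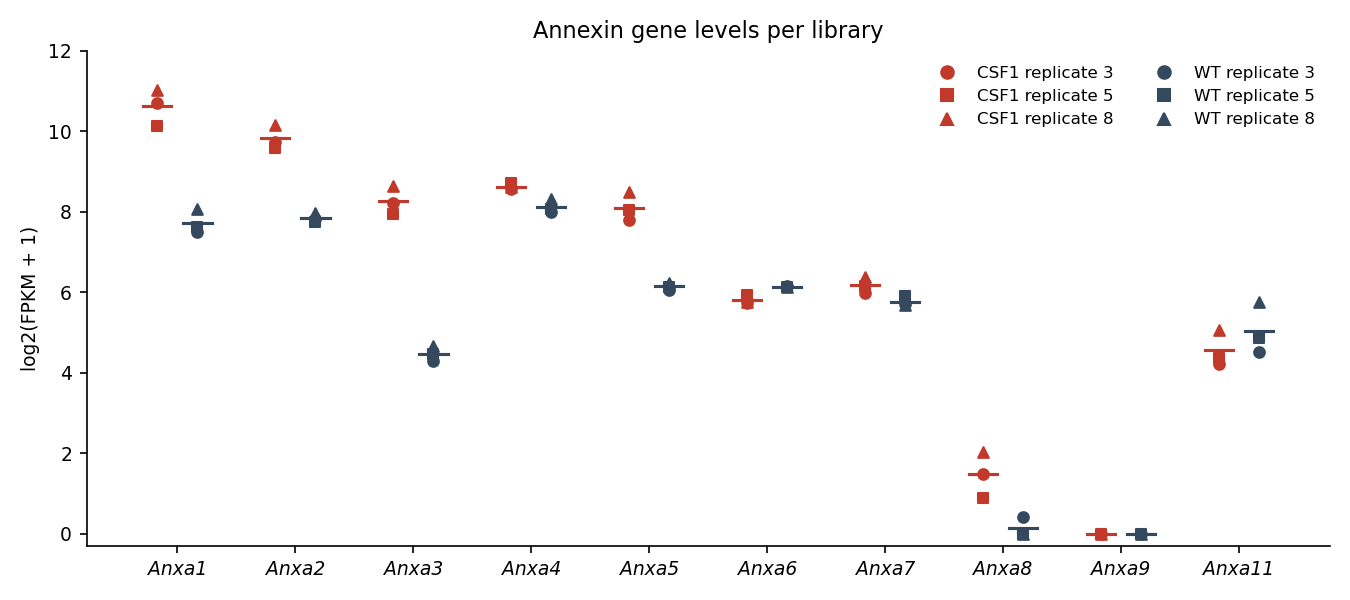
Level of each annexin gene as log2(FPKM + 1) in each library, with CSF1 libraries in red left of WT libraries in blue and a bar at the group mean. Symbols mark the replicate number. The 4 genes Anxa1, Anxa2, Anxa3 and Anxa5 are separated widely between the groups, and Anxa9 is at 0 in all 6 libraries.

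Anxa3 (chromosome 5, 96793385 to 96845968, plus strand) encodes an annexin abundant in neutrophils and also made by epithelia, and it had the largest log2 change of the 9 tested annexins. It stood at 296, 245 and 398 FPKM in CSF1 replicates 3, 5 and 8 and at 18.5, 21.0 and 24.5 FPKM in WT replicates 3, 5 and 8. The lowest CSF1 library was far above the highest WT library. Anxa3 rose 14.7-fold, with means of 313 ± 77.9 FPKM in CSF1 and 21.3 ± 3.03 FPKM in WT and a log2 change of 3.79 ± 0.19 (SE, with a limma adjusted p of 6.66e-06). Its change was larger than that of 98.8% of all tested genes. Among neutrophil genes, Ngp and Mpo were listed at 0 in all 6 libraries, and S100a8 stood at 0.539, 1.68 and 26.8 FPKM in CSF1 replicates 3, 5 and 8 and at 0 in each WT library. S100a9 reached 0.859, 0.846 and 4.14 FPKM in CSF1 and at most 0.0930 FPKM in WT. Csf3r was at 0.573, 0.284 and 2.03 FPKM in CSF1 and at 0 in WT. Camp, Elane and Cxcr2 were at 0.178 FPKM or less in every library. The part of neutrophils in the Anxa3 change was not tested. An annotated gene of the same strand, Gm42603, overlaps exons of Anxa3.

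Anxa1 (chromosome 19, 20373434 to 20390671, minus strand) encodes a glucocorticoid-regulated protein that damps inflammation by acting on formyl peptide receptors. It stood at 1664, 1128 and 2099 FPKM in CSF1 replicates 3, 5 and 8, against 179.5, 195 and 267 FPKM in WT replicates 3, 5 and 8. Every CSF1 library stood at least at 1128 FPKM and none of the WT libraries passed 267 FPKM. Anxa1 rose 7.61-fold, to a mean of 1630 ± 486 FPKM in CSF1 against 214 ± 46.8 FPKM in WT, and its log2 change was 2.90 ± 0.24 (SE, with a limma adjusted p of 7.63e-05). In the authors' Cufflinks intervals, which cover the estimate within 1 library, CSF1 replicate 8 ran from 2086 to 2112 FPKM and WT replicate 8 from 261 to 273 FPKM. These intervals were narrow beside the spread between libraries. By title number, the fold was 9.27 for the libraries numbered 3, 5.77 for those numbered 5 and 7.85 for those numbered 8.

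Anxa2 (chromosome 9, 69453683 to 69491785, plus strand) encodes the partner of S100A10 in a complex that holds plasminogen and its activator at the cell surface. Its levels were 854, 771 and 1144 FPKM in CSF1 replicates 3, 5 and 8, against 224, 212 and 249 FPKM in WT replicates 3, 5 and 8. The groups did not overlap, and in both the library numbered 8 was the highest. Anxa2 rose 4.04-fold, with means of 923 ± 196 FPKM in CSF1 and 229 ± 18.7 FPKM in WT and a log2 change of 1.99 ± 0.17 (SE, with a limma adjusted p of 7.65e-05). Anxa5 (chromosome 3, 36448924 to 36475887, minus strand) encodes the phosphatidylserine-binding annexin used to stain dying cells, and it rose by nearly the same log2 amount. It stood at 219, 264 and 356 FPKM in CSF1 replicates 3, 5 and 8 and at 65.8, 69.3 and 74.1 FPKM in WT replicates 3, 5 and 8. Its log2 change was 1.96 ± 0.18 (SE; limma adjusted p = 0.000119), or 4.01-fold of the means.

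Anxa4 (chromosome 6, 86736840 to 86793584, minus strand) encodes an annexin of secretory epithelia that binds apical membranes, and it was the most abundant annexin of the WT cells. It stood at 379, 416 and 388 FPKM in CSF1 replicates 3, 5 and 8, against 254, 266 and 318 FPKM in WT replicates 3, 5 and 8. The groups did not overlap, but the rise was only 1.41-fold, and its log2 change was 0.50 ± 0.13 (SE, with a limma adjusted p of 0.0192). The call was lost with median-ratio scaling (limma adjusted p = 0.0608) and rescaling outside the 5 most abundant genes (0.0680). It was also lost without CSF1 replicate 5 (limma adjusted p = 0.0778), WT replicate 3 (0.0502) or WT replicate 5 (0.0842).

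Anxa8 (chromosome 14, 34085979 to 34100568, plus strand), whose protein is known from stratified epithelia, stayed near the limit of detection. It stood at 1.81, 0.851 and 3.08 FPKM in CSF1 replicates 3, 5 and 8 and at 0.320, 0 and 0 FPKM in WT replicates 3, 5 and 8. Its mean over all 6 libraries was 1.01 FPKM, just inside the filter, and its log2 change was 1.34 ± 0.32 (SE; limma adjusted p = 0.0125). With quantile normalization the call was lost (limma adjusted p = 0.139). Anxa8 fell below the filter, and was not tested, without CSF1 replicate 3, without CSF1 replicate 8 and in the rescaled tables. Both transcripts of Anxa9 (chromosome 3, 95296094 to 95307176, minus strand) were listed at 0 in all 6 libraries, with upper Cufflinks bounds of 0.0449 FPKM or less. Exons of Anxa9 overlap those of 6330562C20Rik on the same strand and of Mindy1 on the opposite strand. The libraries do not mark strand, and exons of Anxa2 and Anxa4 also overlap genes of the opposite strand, Gm16144 and Gm44036.

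Anxa6, Anxa7 and Anxa11 did not pass the test. Anxa7 (chromosome 14, 20455261 to 20480133, minus strand) encodes synexin, a membrane fusion protein. Its levels were 62.6, 70.5 and 82.7 FPKM in CSF1 replicates 3, 5 and 8, against 51.0, 58.5 and 50.7 FPKM in WT replicates 3, 5 and 8. The groups did not overlap (log2 change 0.42 ± 0.14, SE; limma adjusted p = 0.0571). In the tables the lesser transcript of Anxa7, NM_009674, held 10.3 FPKM of CSF1 replicate 8 and 0 FPKM in the other 5 libraries. Anxa11 (chromosome 14, 25842155 to 25886804, plus strand) encodes an annexin that links RNA granules to lysosomes. Its levels were 17.7, 19.7 and 32.6 FPKM in CSF1 replicates 3, 5 and 8, against 21.8, 28.3 and 52.7 FPKM in WT replicates 3, 5 and 8. The groups overlapped (log2 change -0.49 ± 0.33, SE; limma adjusted p = 0.303), but the CSF1 library was the lower in each same-numbered pair, at 0.813, 0.697 and 0.619 of the WT level. With the title number as a block, Anxa11 was called lower in CSF1 (limma adjusted p = 0.0335). Its level is uncertain, since the pseudogenes Gm2260 and Gm2274 match the transcript over at least 100 bases at 95% identity or more, and the antisense gene Anxa11os overlaps its exons.

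**Figure D2:**
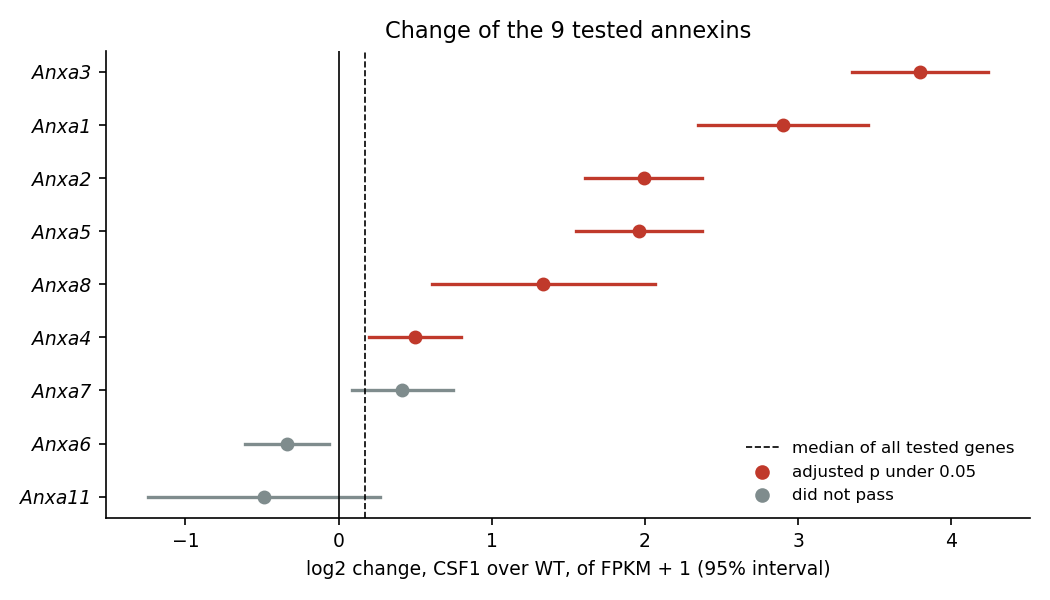
Log2 change of FPKM + 1, CSF1 over WT, of the 9 tested annexins, with unadjusted 95% intervals from limma. Red points passed an adjusted p of 0.05, grey points did not, and the dashed line is the median of all tested genes at 0.17. Anxa3 and Anxa1 lie farthest to the right, while the interval of Anxa11 spans 0.

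Anxa6 (chromosome 11, 54978962 to 55033471, minus strand), which encodes the longest annexin, with a duplicated core, had the least spread in WT relative to its mean among the 8 annexins above 5 FPKM (coefficient of variation 0.294%) and was the 1 annexin whose groups did not overlap with CSF1 the lower. It stood at 51.8, 59.8 and 53.0 FPKM in CSF1 replicates 3, 5 and 8, against 69.7, 69.3 and 69.4 FPKM in WT replicates 3, 5 and 8. The log2 change was -0.34 ± 0.12 (SE; limma adjusted p = 0.0632), with a 95% interval of -0.61 to -0.06. Anxa6 was called lower in CSF1 after each of the 3 scalings, quantile, median-ratio and outside the 5 most abundant genes (limma adjusted p = 0.00954, 0.00572 and 0.0120).

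The listed transcripts of Anxa6 differ by a coding exon of 18 bases, exon 21 of 26 in NM_013472 (GRCm38, chromosome 11, 54987051 to 54987068, minus strand). The exon is shown because it separates the transcripts whose levels follow, with the exon in capitals and 20 transcript bases on either side, from GENCODE release M21:
Anxa6 exon: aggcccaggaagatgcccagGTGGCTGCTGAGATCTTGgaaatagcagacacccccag
The transcript without the exon, NM_001110211, stood at 23.2, 30.9 and 23.9 FPKM in CSF1 replicates 3, 5 and 8, against 39.0, 34.8 and 36.8 FPKM in WT replicates 3, 5 and 8. The transcript with the exon was at 28.6, 28.9 and 29.1 FPKM in CSF1, against 30.7, 34.4 and 32.6 FPKM in WT. Both were lower in CSF1 without overlap, and the transcript without the exon had the larger difference. It was the more abundant of the transcripts over all libraries, and when it alone stood for the gene it was called lower in CSF1 (log2 change -0.50, limma adjusted p = 0.0389). The transcript without the exon made up 47.2 ± 3.87% of Anxa6 in CSF1 and 53.1 ± 2.80% in WT (SD, n = 3 each), and these shares overlapped between the groups.

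**Figure D3:**
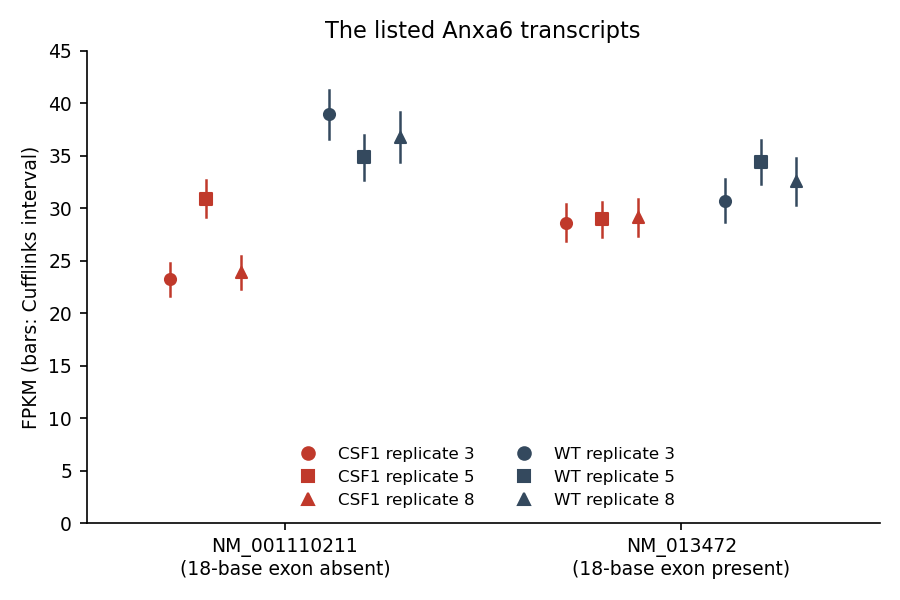
FPKM of the listed Anxa6 transcripts per library, with CSF1 in red left of WT in blue, symbols for the replicate number and vertical bars for the Cufflinks interval within a library. Transcript NM_001110211 lies at 23.2 to 30.9 FPKM in CSF1 and 34.8 to 39.0 FPKM in WT.

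The order of the annexins by level differed between the groups. In each CSF1 library Anxa1 ranked first, with 46.9%, 37.9% and 46.1% of all annexin FPKM in replicates 3, 5 and 8, while in WT it held 20.3%, 21.2% and 24.2%. In each WT library Anxa4 ranked first, with 28.7%, 28.9% and 28.8%, and in CSF1 Anxa4 held 10.7%, 14.0% and 8.51%. The share of Anxa2 was alike in both groups, at 24.1 to 25.9% in CSF1 and 22.5 to 25.4% in WT. By mean FPKM the order in CSF1 was Anxa1, Anxa2, Anxa4, Anxa3, Anxa5, Anxa7, Anxa6, Anxa11, Anxa8 and Anxa9. In CSF1 the ranges of neighbours overlapped for Anxa1 with Anxa2, Anxa4 with Anxa3 and Anxa3 with Anxa5, although Anxa1 was above Anxa2 within each CSF1 library. The WT order was Anxa4, Anxa2, Anxa1, Anxa5, Anxa6, Anxa7, Anxa11, Anxa3, Anxa8 and Anxa9. In WT the ranges overlapped for Anxa2 with Anxa1, Anxa5 with Anxa6, Anxa7 with Anxa11, Anxa11 with Anxa3 and Anxa8 with Anxa9.

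**Figure D4:**
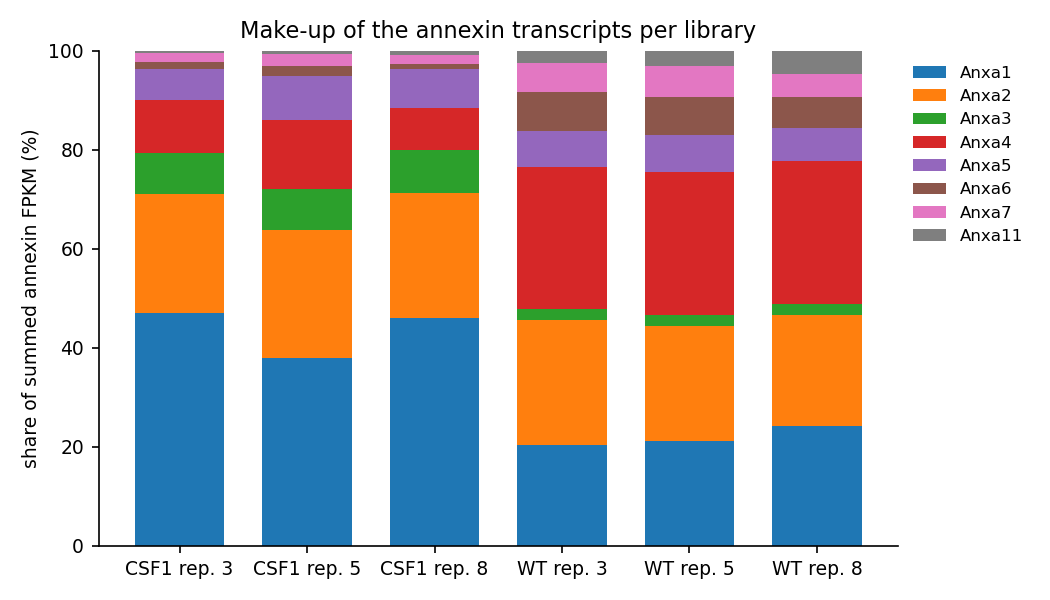
Share of the summed annexin FPKM held by each gene in each library, in percent, with the 3 CSF1 libraries left of the 3 WT libraries. Anxa8 and Anxa9 are too low to draw. Anxa1 takes 37.9 to 46.9% in CSF1 and 20.3 to 24.2% in WT, and Anxa4 takes 8.51 to 14.0% in CSF1 and 28.7 to 28.9% in WT.

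Among genes outside the family, Anxa3 was most like Cd44, the hyaluronan receptor gene, by the root mean square difference of log2(FPKM + 1) centred on each gene's mean over the 6 libraries (0.11). Anxa1 was most like the BCL2-family gene Bok (0.18), Anxa2 most like Net1 (0.08) and Anxa5 most like the transporter gene Abcc1 (0.05). The genes nearest to Anxa4, Anxa6, Anxa8 and Anxa11 were Ppap2c, Dpm1, Trp53i11 and 4930539J05Rik, at distances of 0.03 to 0.18. Within the family, Anxa2 and Anxa5 were each other's nearest (0.13), as were Anxa4 and Anxa7 (0.18) and Anxa1 and Anxa3 (0.46). These distances are descriptions over 6 libraries that fall into 2 groups. They also depend on the pseudocount of 1 FPKM, which shrinks changes of low genes such as Abcc1, at 0.252 to 0.321 FPKM in WT. With a pseudocount of 0.1, the log2 change was 3.38 for Abcc1 and 1.97 for Anxa5. It was 2.03 for Trp53i11 and 3.48 for Anxa8 at that pseudocount. The changes of Anxa4 and Ppap2c stayed alike there, at 0.50 for both.

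Promoters of Anxa1, Anxa2 and Anxa5 are shown because these abundant genes rose together, and that of Anxa4 because it rose least of the genes called. They are the 250 bases before the start site that the deposited tables use, from RefSeq on GRCm38.p6, which held 8 of the 10 annexins, Anxa3 and Anxa6 not among them. Anxa1 is at chr19:20390672-20390921 (minus strand), Anxa2 at chr9:69453433-69453682 (plus strand), Anxa5 at chr3:36475888-36476137 (minus strand) and Anxa4 at chr6:86793585-86793834 (minus strand). Capitals mark matches, on either strand, to the TATA box (TATAAA), the GC box (GGGCGG), the AP-1 letters (TGANTCA), the CRE letters (TGACGTCA), the STAT letters (TTCNNNGAA), the interferon response core or the kappaB motif of NF-kB:
Anxa1: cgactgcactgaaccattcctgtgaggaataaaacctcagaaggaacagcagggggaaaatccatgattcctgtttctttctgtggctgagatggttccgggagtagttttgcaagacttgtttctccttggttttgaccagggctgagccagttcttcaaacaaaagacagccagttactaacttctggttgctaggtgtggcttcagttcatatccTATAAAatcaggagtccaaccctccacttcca
Anxa2: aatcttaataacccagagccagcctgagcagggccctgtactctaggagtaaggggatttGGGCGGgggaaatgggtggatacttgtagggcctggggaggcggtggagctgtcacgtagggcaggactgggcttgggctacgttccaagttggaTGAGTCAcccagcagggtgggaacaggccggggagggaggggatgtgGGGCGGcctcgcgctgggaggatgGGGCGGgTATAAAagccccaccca
Anxa5: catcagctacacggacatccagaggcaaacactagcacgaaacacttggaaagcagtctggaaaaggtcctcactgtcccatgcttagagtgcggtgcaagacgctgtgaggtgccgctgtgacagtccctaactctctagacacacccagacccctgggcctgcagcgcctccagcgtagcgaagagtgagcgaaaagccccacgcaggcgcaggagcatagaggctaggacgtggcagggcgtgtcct
Anxa4: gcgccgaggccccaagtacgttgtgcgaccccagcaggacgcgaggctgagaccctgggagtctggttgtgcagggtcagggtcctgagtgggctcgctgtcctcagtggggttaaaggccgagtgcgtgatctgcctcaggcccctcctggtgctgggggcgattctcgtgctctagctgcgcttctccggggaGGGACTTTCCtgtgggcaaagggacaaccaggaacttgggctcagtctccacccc
The windows had little in common by these letters. Anxa1 and Anxa2 hold a TATA box, 32 and 17 bases before the start, as do 12.4% of 32851 promoters. Anxa2 also has 3 GC boxes (present in 32.7% of promoters) and an AP-1 match 95 bases before the start (6.75% of promoters). Anxa4 holds a kappaB match 55 bases before the start, found in 7.25% of promoters. Anxa5 has no match to these letters in this window. No annexin window matched the CRE, STAT or interferon letters, which are in 1.55%, 7.02% and 2.98% of promoters. None of these matches overlap each other in the sequences shown.

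The tested S100 partners of the annexins rose, although Anxa11, whose protein binds S100A6, did not. Of 6 listed, 5 were tested and all 5 rose, beside 24.9% of all tested genes, with a median log2 change of 2.59. S100a11, whose protein binds ANXA1, stood at 1677, 1552 and 3053 FPKM in CSF1 replicates 3, 5 and 8, against 211, 206 and 260.5 FPKM in WT replicates 3, 5 and 8 (log2 change 3.15, limma adjusted p = 5.96e-05). S100a10, the ANXA2 partner, averaged 586 ± 228 FPKM in CSF1 and 92.7 ± 16.5 FPKM in WT (log2 change 2.59, limma adjusted p = 0.000182). S100a6, whose protein binds ANXA11, averaged 457 ± 102 FPKM in CSF1 and 23.95 ± 4.83 FPKM in WT (log2 change 4.2, limma adjusted p = 5.89e-06). S100a1 rose too (log2 change 1.56, limma adjusted p = 9.84e-05).

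Ratios within a library show whether partners kept step. S100a11 over Anxa1 was 1.01, 1.38 and 1.45 in CSF1 replicates 3, 5 and 8, against 1.17, 1.06 and 0.974 in WT replicates 3, 5 and 8, and the groups overlapped (exact two-sided permutation p = 0.3, adjusted over the 3 ratios 0.3). S100a10 over Anxa2 was 0.602, 0.522 and 0.735 in CSF1 against 0.352, 0.415 and 0.446 in WT, without overlap (exact permutation p = 0.1, adjusted 0.15). S100a6 over Anxa11 was 23.3, 19.6 and 17.6 in CSF1 against 0.868, 0.862 and 0.542 in WT (exact permutation p = 0.1, adjusted 0.15). The smallest p this test allows with 3 libraries against 3 is 0.1, so no ratio could pass a threshold of 0.05. The last ratio also carries the uncertainty of Anxa11.

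**Figure D5:**
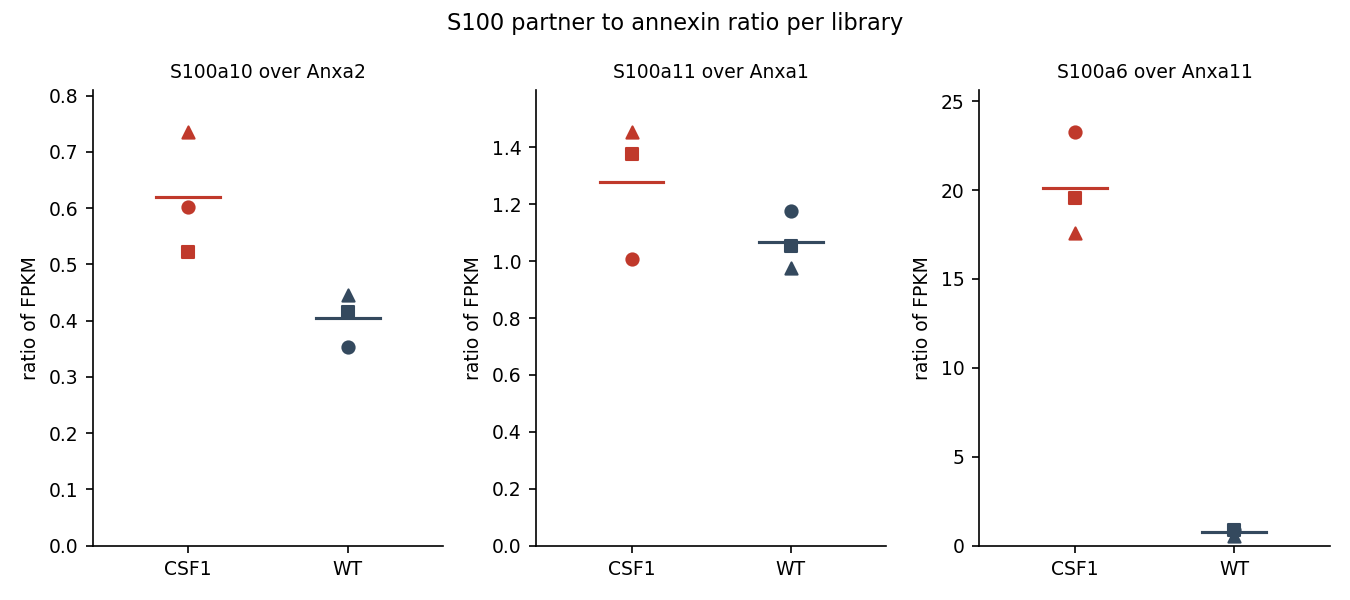
FPKM of an S100 gene divided by FPKM of its annexin partner in each library, with CSF1 in red left of WT in blue, a bar at the group mean and symbols (circle 3, square 5, triangle 8) for the replicate number. S100a10 over Anxa2 is 0.522 to 0.735 in CSF1 and 0.352 to 0.446 in WT, while S100a11 over Anxa1 overlaps between the groups.

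Genes of plasminogen activation at the cell surface, a process that ANXA2 supports, changed in part. Of 9 listed, 6 were tested, 3 rose, 0 fell and 3 did not pass, beside 24.9% of all tested genes that rose and 7.47% that fell. Plat, the tissue plasminogen activator gene, averaged 98.2 ± 18.1 FPKM in CSF1 and 5.82 ± 1.18 FPKM in WT (log2 change 3.86, limma adjusted p = 5.94e-06). Plaur, the urokinase receptor gene, averaged 286 ± 73.9 FPKM in CSF1 and 53.97 ± 21.4 FPKM in WT (log2 change 2.42, limma adjusted p = 0.000483), and the protease inhibitor gene Serpine2 also rose (log2 change 2.96, limma adjusted p = 0.000905). The plasminogen receptor gene Plgrkt was at 27.4 ± 2.94 FPKM in CSF1 and 26.7 ± 4.54 FPKM in WT (limma adjusted p = 0.876), and Plg itself was listed at 0 throughout.

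Most tested membrane repair genes rose. Of 14 listed, 12 were tested, 8 rose, 0 fell and 4 did not pass, beside 24.9% and 7.47% of all tested genes that rose and fell. Of the 12, 1 had a WT mean under 1 FPKM, and with a filter of 5 FPKM 7 of 11 rose. The median log2 change was 0.64 (0.44 to 0.45 after the 3 scalings, with 7 or 8 higher), beside 0.17 for all tested genes. Over the 14 listed genes, mean log2(FPKM + 1) was 4.17, 4.10 and 4.31 in CSF1 replicates 3, 5 and 8. In WT replicates 3, 5 and 8 it was 3.24, 3.30 and 3.39. The 4 most abundant genes of the list follow. Pdcd6, whose calcium-sensing protein binds annexins A7 and A11 in human cells, rose by 0.79 (limma adjusted p = 0.00618), Sri by 0.61 (0.00907) and the calpain subunit gene Capns1 by 0.68 (0.0138). Capns1 did not pass after median-ratio scaling (limma adjusted p = 0.0655) or without both libraries numbered 8 (0.0716). Tsg101 of the ESCRT machinery did not pass (log2 change 0.37, limma adjusted p = 0.0936).

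Genes that expose phosphatidylserine, the lipid annexins bind, or clear cells that carry it changed in part. Of 11 listed, 10 were tested, 6 rose, 1 fell and 3 did not pass, with a median log2 change of 1.21, and 2 of the 10 had a WT mean under 1 FPKM. Of all tested genes 24.9% rose and 7.47% fell, and their median was 0.17. The gene that fell, named after its values were seen, was Mertk, a phagocyte receptor kinase gene, at 2.20 ± 1.12 FPKM in CSF1 and 5.03 ± 1.31 FPKM in WT (log2 change -0.96, limma adjusted p = 0.0400). No gene of the list fell without CSF1 replicate 5, CSF1 replicate 8, WT replicate 3, WT replicate 8 or both libraries numbered 8. The same held without a filter on low values, with array weights and with a filter of 5 FPKM, which leaves out Mertk. Mfge8, a bridging protein between phosphatidylserine and phagocytes, averaged 235.5 ± 32.2 FPKM in CSF1 and 18.7 ± 6.12 FPKM in WT (log2 change 3.63, limma adjusted p = 2.92e-05). The scramblase-family gene Plscr1 averaged 264 ± 98.9 FPKM in CSF1 and 57.8 ± 12.9 FPKM in WT (log2 change 2.13, limma adjusted p = 0.000501). Ano6, a scramblase gene, had a log2 change of 0.52 (limma adjusted p = 0.0321), which was lost under each of the 3 scalings (0.166 to 0.216) and without CSF1 replicate 3, CSF1 replicate 5, WT replicate 5 or WT replicate 8 (0.0925 to 0.108). The flippase subunit gene Tmem30a was at 39.1 ± 3.90 FPKM in CSF1 and 41.8 ± 7.36 FPKM in WT (limma adjusted p = 0.718).

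The formyl peptide receptors, on which ANXA1 acts, were too low to test. Fpr1 stood at 0.238, 0.162 and 1.26 FPKM in CSF1 replicates 3, 5 and 8 and was listed at 0 in each WT library. Fpr2 was at 0.332, 0.129 and 0.867 FPKM in CSF1 and at 0.0579, 0 and 0 FPKM in WT, and the other 4 receptor genes in the tables were listed at 0 throughout. The glucocorticoid response list, checked because glucocorticoids raise Anxa1, was tested for all 7 genes. It held 1 gene that rose, 0 that fell and 6 that missed the threshold, beside 24.9% and 7.47% of all tested genes that rose and fell. With the title number as a block, and without CSF1 replicate 3, 1 of these genes fell in each case. The median log2 change was -0.05, and it was -0.24, -0.26 and -0.24 after quantile normalization, median-ratio scaling and rescaling outside the 5 most abundant genes, with 2, 1 and 0 genes lower. It was above 0 without CSF1 replicate 8 (0.0052), WT replicate 5 (0.035) or both libraries numbered 8 (0.015) and for the most abundant transcripts alone (0.10). Sgk1 rose (log2 change 1.68, limma adjusted p = 0.000305). Tsc22d3 was at 60.1 ± 4.00 FPKM in CSF1 and 62.5 ± 7.89 FPKM in WT (limma adjusted p = 0.818), and Fkbp5 at 69.9 ± 13.9 FPKM in CSF1 and 84.0 ± 3.99 FPKM in WT (0.218, and 0.0464 after median-ratio scaling). Dusp1 did not pass either (log2 change 0.44, limma adjusted p = 0.184). Of the other annexin genes, Anxa13 was at 8.50, 8.83 and 7.44 FPKM in CSF1 and at 4.10, 5.33 and 6.61 FPKM in WT (limma adjusted p = 0.0507). Anxa13 was called higher in 5 of 19 alternatives, 1 of them without WT replicate 8 (limma adjusted p = 0.0328). Over the 19 its limma adjusted p ran from 0.0173 to 0.317. Anxa10 reached at most 0.02 FPKM.

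Markers of other cell types moved with the annexins. Their counts are to be read beside the 24.9% of all tested genes that rose, and many of them passed the filter on low values only through CSF1, where they are high. All 12 macrophage markers rose, 5 of them with a WT mean under 1 FPKM, with a summed level of 800, 992 and 3207 FPKM in CSF1 replicates 3, 5 and 8, against 25.6, 32.7 and 127.5 FPKM in WT replicates 3, 5 and 8. Of 9 tested basal markers, 2 of them with a WT mean under 1 FPKM, 8 rose, and the list of 10 summed to 597, 567 and 899 FPKM in CSF1, against 66.4, 78.1 and 81.1 FPKM in WT. All 10 tested of 12 stromal markers rose, 6 of them with a WT mean under 1 FPKM. The stromal list summed to 655, 808 and 535 FPKM in CSF1, against 103, 103 and 114 FPKM in WT. Most of each stromal sum was Dcn, at 455, 522 and 394 FPKM in CSF1 and 95.6, 88.2 and 102 FPKM in WT. Endothelial markers summed to 12.1 to 15.3 FPKM in CSF1 and 1.14 to 2.63 FPKM in WT, and the 3 of 7 that were tested rose, each with a WT mean under 1 FPKM. Lymphocyte markers summed to 7.34 to 25.05 FPKM in CSF1 and 0.500 to 1.12 FPKM in WT, where Ms4a1 was at 0. The neutrophil list, with 8 of 9 genes in the tables and 1 tested that did not pass, summed to 1.97 to 33.2 FPKM in CSF1 and at most 0.133 FPKM in WT.

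CSF1 replicate 8 was the highest of the 6 libraries for Anxa1, Anxa2, Anxa3, Anxa5, Anxa7 and Anxa8 and also for the luminal, macrophage, basal, endothelial, lymphocyte and neutrophil sums, but not for the stromal sum. CSF1 replicate 5 had higher macrophage, stromal, luminal and neutrophil sums than CSF1 replicate 3, and lower basal, endothelial and lymphocyte sums. Of the annexins, Anxa1, Anxa2, Anxa3 and Anxa8 were lower in CSF1 replicate 5 than in CSF1 replicate 3. Anxa4, Anxa5, Anxa6, Anxa7 and Anxa11 were higher there. Other cell types express annexins too, and the part of these cells in the annexin changes was not tested. Different numbers of cells of a type and different RNA per cell cannot be told apart in such libraries. Without CSF1 replicate 8, 5 annexins rose and 0 fell, and the calls of Anxa1, Anxa2, Anxa3 and Anxa5 held. This does not test the part of other cells, since CSF1 replicates 3 and 5 still had macrophage sums of 800 and 992 FPKM.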

How the data were processed

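Cells were sorted by the submitters, and SMART-Seq v4 cDNA, primed at random and with oligo-dT, was prepared for sequencing on an Illumina HiSeq, per the labels' protocols. Per the submitters' processing notes, bcl2fastq 1.8.3, TopHat and Cufflinks were used with mm10. The authors deposited 1 isoform table per library with FPKM and its interval. The deposited coverage, a signal of mean read depth, was a constant times FPKM within each table, 4.17 to 5.01 in CSF1 and 2.72 to 3.50 in WT, so CSF1 libraries were deeper. Fragment totals are not given, so the counts behind a value are unknown.

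FPKM was summed per symbol, 9 genes that Cufflinks marked as failed in at least 1 library, none of them annexins, were dropped, and log2(FPKM + 1) of genes averaging at least 1 FPKM was tested with limma 3.58.1 in R 4.3.3 (intensity trend, two-sided, Benjamini-Hochberg over all 10951 genes, threshold 0.05). Fold changes on this scale understate changes of low genes. The fit was also run on simulated data in which libraries varied independently. That run did not cover shared deviations of same-numbered libraries. The protocol does not mark strand. Same-numbered libraries deviated together (correlations of 0.257, 0.111 and 0.182 over tested genes, pairing taken from the titles and these values), and the blocked value is given where it changed a named gene's call or a list's count. Ratios used an exact permutation test (scipy 1.17.1). Genome positions are 1-based on GRCm38, with GENCODE M21 for overlaps, and near-identical copies were sought with BLAST among annotated transcripts.

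The members and lists were chosen with earlier results of these data known. Named were all members, Csf1, up to 4 of the most abundant members of each pathway list, the S100 genes of the ratios and the gene nearest to each annexin, except that the one nearest to Anxa7 is not reported here. Proteins were not analysed here. Alternatives covered the pseudocount, the filter, scaling, the replicate block, weights, the most abundant transcript, failed genes and leaving out each library.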

Additional observations from a re-analysis of the deposited data

How the results depend on the processing

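The calls and directions of Anxa1, Anxa2, Anxa3 and Anxa5 held under all 19 alternatives, with log2 changes of 2.67 to 3.14, 1.78 to 2.11, 3.57 to 3.95 and 1.75 to 2.12. Between 4 and 6 annexins were called higher, with 4 after median-ratio scaling and after rescaling outside the 5 most abundant genes. An annexin was called lower, against 0 as reported, without a filter, with quantile normalization, with either rescaling, with array weights and with the most abundant transcript alone (each time 1, Anxa6), and with the replicate block (1, Anxa11). The replicate block changed no other annexin's call. Genes higher in CSF1 numbered 1761 with a filter of 5 FPKM and 1694 with quantile normalization. Genes lower in CSF1 numbered 2362 after quantile normalization, 1675 after median-ratio scaling and 1437 after rescaling outside the 5 most abundant genes. Leaving out 1 library at a time gave 2053 to 2489 genes higher and 478 to 850 lower, with the fewest lower without WT replicate 5 and 526 without WT replicate 8. Without both libraries numbered 8, an alternative chosen after seeing the data, 485 were lower. With the replicate block, 2883 genes were higher and 890 lower.

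Genes that did not pass changed sign in places. Plgrkt (0.04) was -0.20 after quantile normalization, -0.16 after median-ratio scaling, -0.15 after rescaling outside the 5 most abundant genes, and -0.0404 to 0.171 when 1 library was left out. Tsc22d3 (-0.05) was 0.10 for its most abundant transcript, 0.0153 without both libraries numbered 8, and -0.146 to 0.0349 when 1 library was left out. Tmem30a (-0.09) was 0.11 without both libraries numbered 8 and -0.177 to 0.0486 when 1 library was left out. The gene 4930539J05Rik (-0.22) was -0.479 to 0.0576 when 1 library was left out. The cause of these changes was not tested. Anxa8 could be fitted in 13 of the alternatives, being below the filter in the others.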
